A study of Homo sapiens with 2 samples.

Results

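Gene-desert peaks with a full antioxidant response element (ARE) were NRF1 ChIP-seq peaks between protein-coding genes and far from the start of any of them. They held a full-length form of the motif. Their centres lay outside every protein-coding gene, more than 2 kb from every annotated transcription start site (TSS) and more than 50 kb from the nearest protein-coding TSS. Each held TGACTCAGC or TGAGTCAGC on either strand, called a full ARE here, which is the ARE consensus TGA(G/C)NNNGC with its open positions filled as T, C and A. Of the 5683 deposited peaks, 744 met these conditions (13.1% of all peaks, and 21.4% of the 3478 peaks with a full ARE). The peaks were chosen by position and sequence, and no measured value other than the presence of the peak was used.

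HCT116 cells, a line from a human colon cancer, were treated with MG132, a proteasome inhibitor, at 1 µM for 16 h, and chromatin was immunoprecipitated with an antibody against NRF1. The data analysed here were 1 NRF1 ChIP library, with no replicate and no untreated counterpart, and an input library of cells treated the same way was not used here. For each peak that MACS called on hg19, the authors deposited a position and a score. The score is the negative log10 of the peak's p-value times 10, so it ranks peaks within the list and is not a level of binding. Read numbers behind the peaks are unknown. All intervals given for shares and medians are 95% intervals, by Wilson's method and from order statistics, respectively, and cover counting error only.

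NRF1, encoded by NFE2L1, is a CNC-family transcription factor that is anchored in the membrane of the endoplasmic reticulum and is turned over by the proteasome. When the proteasome is inhibited, it is processed and enters the nucleus. There it binds AREs as a heterodimer with a small MAF protein, and proteasome subunit genes are its best-known targets. The TGA(C/G)TCA core of a full ARE is also the AP-1 site bound by FOS and JUN proteins, and the GC that follows it is the side that small MAF proteins recognise. Gene deserts are long stretches without a protein-coding gene, in which enhancers and noncoding RNA genes can lie.

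All sequences given are from hg19, are written 5′ to 3′ on the strand named, and have each full ARE in capitals. The 3 stretches that come first are from peaks in which the full ARE was repeated in tandem, and they show its spacing.
Tandem copies near TRIML1, chr4:189368418-189368595, plus strand: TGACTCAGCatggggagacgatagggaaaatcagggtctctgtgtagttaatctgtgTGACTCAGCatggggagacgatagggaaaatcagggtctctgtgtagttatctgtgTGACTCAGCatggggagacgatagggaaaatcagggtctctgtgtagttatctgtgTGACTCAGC
Tandem copies near ZNF469, chr16:88366975-88367121, minus strand: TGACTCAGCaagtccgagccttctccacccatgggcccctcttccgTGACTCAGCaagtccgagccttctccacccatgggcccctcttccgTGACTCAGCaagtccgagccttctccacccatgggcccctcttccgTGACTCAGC
Tandem copies near CES1, chr16:55787032-55787160, plus strand: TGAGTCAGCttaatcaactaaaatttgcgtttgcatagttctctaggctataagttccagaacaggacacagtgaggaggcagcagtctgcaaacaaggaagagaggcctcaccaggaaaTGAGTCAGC

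The next sequences give 15 bases on each side of the full ARE nearest to the centre, for 4 of the 10 peaks with the highest scores and for 4 of the 5 peaks farthest from a protein-coding TSS. They are shown because the bases on both sides of the motif recur: A or G stands before the ARE in 7 of these 8 and A after it in each of the 8. These are chosen examples, and the counts do not stand for the other peaks. The bases after the ARE near FOXF1 and nearest to ARAP2 are nearly the same, so the 8 may not be separate instances. The peak near CES1, also among the 10 with the highest scores, has T after its central full ARE.
Peak near TAFA5, chr22:49480251-49480289, minus strand: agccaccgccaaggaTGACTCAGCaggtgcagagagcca
Peak near UBL3, chr13:30497190-30497228, minus strand: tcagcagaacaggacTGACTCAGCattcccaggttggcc
Peak near ID2, chr2:8369888-8369926, plus strand: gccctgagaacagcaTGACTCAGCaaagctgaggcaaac
Peak near FOXF1, chr16:86341378-86341416, minus strand: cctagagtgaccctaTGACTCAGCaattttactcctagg
Peak nearest to ARAP2, chr4:33495921-33495959, minus strand: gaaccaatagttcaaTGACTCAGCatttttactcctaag
Peak nearest to CTNNA2, chr2:82510374-82510412, minus strand: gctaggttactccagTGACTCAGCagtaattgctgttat
Peak nearest to PCDH10, chr4:132391700-132391738, plus strand: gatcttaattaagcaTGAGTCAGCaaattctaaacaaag
Peak nearest to TMEFF2, chr2:194710502-194710540, minus strand: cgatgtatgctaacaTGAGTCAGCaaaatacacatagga

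The gene-desert peaks lay at a median of 151 kb from the nearest protein-coding TSS (95% interval 137 to 164 kb, quartiles 87.4 and 296 kb). The distances ran from 50.3 to 2552 kb, with 498 peaks beyond 100 kb, 283 beyond 200 kb, 95 beyond 500 kb and 20 beyond 1000 kb. The peak lay upstream of the nearest coding TSS in 406 cases (54.6%, interval 51.0 to 58.1%). The distance to the other end of a coding gene was not measured. Far from a coding TSS did not mean far from every transcript. The nearest TSS of any kind was at a median of 22.8 kb, 272 peaks (36.6%) lay inside a long noncoding RNA gene, 15 inside a pseudogene and 460 (61.8%) outside every annotated gene. The same values for gene-desert sequence at large were not computed, so these do not show a trait of the peaks. At the 50 kb limit, the 2 peaks just inside were nearest to C5orf46 (50.26 kb, score 66.74) and MAOA (50.60 kb, score 105.83), and the 2 just outside were nearest to ELF3 (49.59 kb, score 109.44) and SCARA3 (49.77 kb, score 192.92).

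Gene deserts by this rule made up 990.2 Mb, or 34.6% of the determined sequence of the genome, and held 0.751 of these peaks per Mb. A full ARE was present in 68.8% of the 1082 gene-desert peaks (interval 65.9 to 71.5%), against 66.5% of intergenic peaks at most 50 kb from a coding TSS, 65.1% of peaks inside coding genes and 47.6% of peaks within 2 kb of a TSS. Over all peaks searched the share was 61.3%. Since a full ARE is part of the rule, this share was not tested. The other distal peaks with a full ARE, 703 intergenic peaks at most 50 kb from a coding TSS and 1298 peaks inside coding genes, served as the comparison sets for what follows.

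The central full ARE of the gene-desert peaks lay close to the centre of the peak, at a median distance of 28.0 bp (interval 25 to 30 bp). It was within 25 bp of the centre in 347 peaks, within 50 bp in 578 (77.7%) and within 100 bp in 711 (95.6%), and it was over 200 bp away in 2. The share within 50 bp was 73.1% in the intergenic peaks nearer to genes and 73.8% inside genes, and neither difference passed Fisher's exact test (two-sided, adjusted p = 0.106 and 0.110). With a distance of 100 kb in the rule, both did (same exact test, adjusted p = 0.014 and 0.017).

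**Figure D1:**
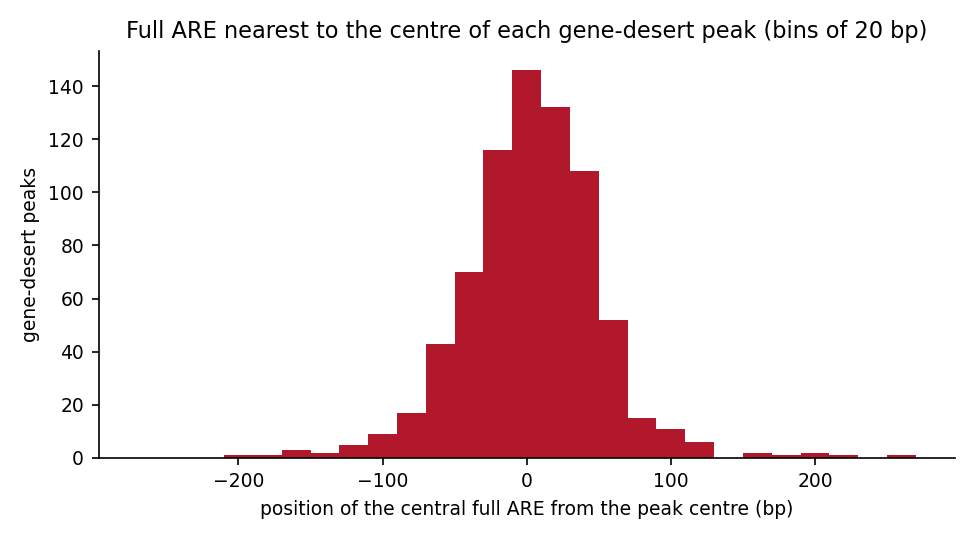
Histogram of the position of the full ARE nearest to the centre of each of the 744 gene-desert peaks, in bp from the peak centre on the x axis, with the number of peaks in bins of 20 bp on the y axis. The sites are spread on both sides of the centre, with 711 of the 744 within 100 bp of it.

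The scores of the gene-desert peaks had a median of 94.76 (interval 90.10 to 99.91), quartiles of 68.83 and 158.28, and a range from 50.00 to 3100. The median was 103.69 (97.25 to 110.89) for intergenic peaks at most 50 kb from a coding TSS and 105.33 (100.03 to 110.50) for peaks inside genes. A score of at least 100 was reached by 344 gene-desert peaks (46.2%, interval 42.7 to 49.8%), against 51.9% of all peaks with a full ARE. The share was lower than the 52.8% inside genes (odds ratio 0.770, Fisher's exact test, two-sided, adjusted p = 0.030). Against the 52.2% of the intergenic peaks nearer to genes it did not pass (odds ratio 0.787, same exact test, adjusted p = 0.071). This second comparison passed with a distance of 100 kb in the rule (odds ratio 0.620, exact test, adjusted p = 6.0e-05) and with the full ARE required in the central 200 bp (0.758, 0.045), while the first was lost when only peaks outside every annotated gene were kept (0.778, 0.106). The median width was 490 bp (interval 482 to 503 bp), and the widths ran from 227 to 2940 bp.

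**Figure D2:**
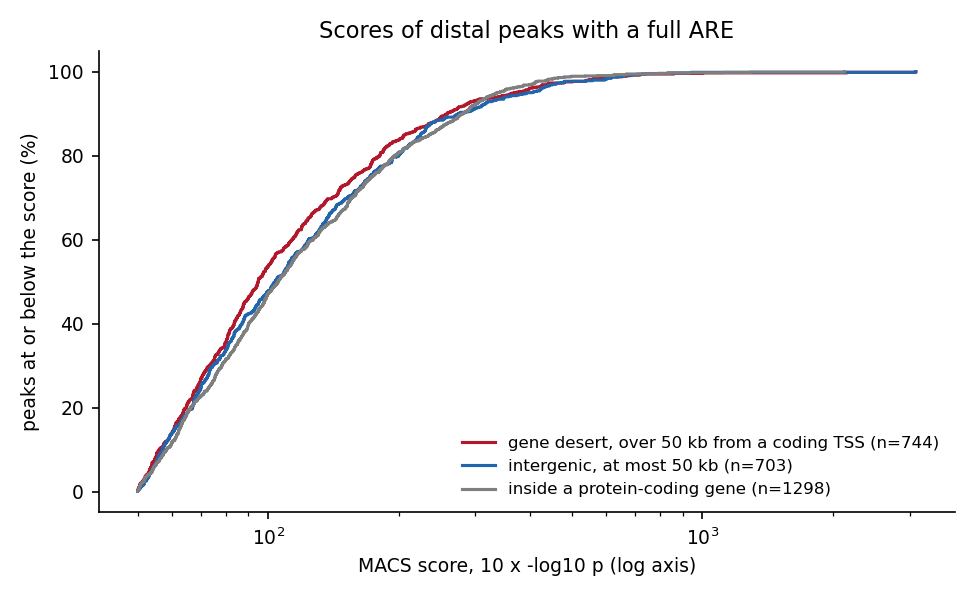
Cumulative share of peaks in percent (y axis) at or below each MACS score (x axis, log scale) for the 744 gene-desert peaks, the 703 intergenic peaks at most 50 kb from a coding TSS and the 1298 peaks inside coding genes, all with a full ARE. The gene-desert curve lies to the left of the other two around a score of 100, with medians of 94.76, 103.69 and 105.33.

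The highest scores went with repeated motifs. Of the 744 peaks, 700 held 1 full ARE, 35 held 2, 4 held 3 and 5 held 4 or more. The median score was 93.14 (87.57 to 97.42) with 1 full ARE, 126.04 (104.62 to 228.08) with 2 and 681.84 (398.35 to 2150.68, n = 9) with 3 or more. Across the 744 peaks, which share 1 library, Spearman's rho between the score and the number of full AREs was 0.19, and that between the score and the distance to a coding TSS was -0.13. Peaks with 2 or more full AREs made up 5.91% against 5.55% in the intergenic peaks nearer to genes and 4.85% inside genes (Fisher's exact test, two-sided, adjusted p = 0.896 and 0.364, with odds ratios of 1.07 and 1.23).

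The peak with the highest score, 3100, spanned chr4:189366986-189369925 inside the noncoding gene LINC01060, 304 kb from TRIML1, which encodes a tripartite motif family-like protein. It held 52 full AREs, all on the plus strand and all written TGACTCAGC with a purine on both sides, at spacings of 56 or 57 bp. The highest score among intergenic full-ARE peaks at most 50 kb from a coding TSS was also 3100. Whether this value is a ceiling of the score was not examined. A second peak of the same array, at chr4:189365805-189366800, scored 1002.50 and held 13 more copies. The second highest score, 2150.68, belonged to chr16:88366406-88367561, outside every annotated gene and 82.4 kb upstream of ZNF469, a zinc finger gene. It held 7 full AREs on the minus strand, and all 6 spacings were 46 bp. A further array of 7 copies lay at chr16:55786577-55787709, 57.4 kb from CES1, a carboxylesterase gene, with a score of 652.14. Its copies were written TGAGTCAGC and none had a purine on both sides with C at position 4, and 4 of its 6 spacings were 120 bp. The peak with 4 full AREs, at chr12:132970113-132971179 and 64.7 kb from GALNT9, scored 681.84 with uneven spacings of 25 to 525 bp.

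A single full ARE could also lie under a high score. The peak 449 kb upstream of ID2, which encodes an inhibitor of basic helix-loop-helix factors, scored 716.89 at chr2:8369603-8370340 inside LINC00298 and LINC00299. The peak 203 kb upstream of FOXF1, a forkhead transcription factor gene, scored 668.59 at chr16:86340903-86341776, and that 116 kb upstream of GRHL2, a grainyhead-like factor of epithelial cells, scored 613.43. The peak near TAFA5 (391 kb, score 860.00) held 2 full AREs and that near UBL3 (72.2 kb, score 725.04) held 3. At the other end, the 3 lowest scores were 50.00 near GSDMC, 50.07 near BRINP3 and 50.11 near SOCS6.

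**Figure D3:**
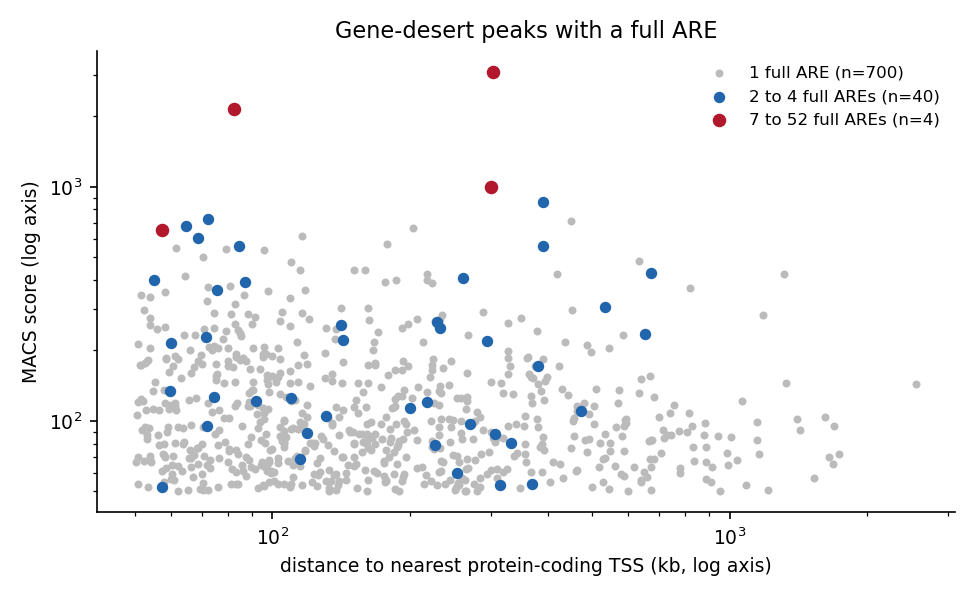
Score of each of the 744 gene-desert peaks (y axis, log scale) against the distance from its centre to the nearest protein-coding TSS in kb (x axis, log scale), coloured by the number of full AREs in the peak. The 4 peaks with 7 to 52 full AREs score from 652.14 to 3100, and peaks beyond 1000 kb are few and score up to 426.10.

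The median score was highest from 50 to 100 kb, and the intervals of the farther bins overlapped. It was 114.43 (98.55 to 124.18, n = 246) from 50 to 100 kb, 89.55 (84.15 to 97.42, n = 215) from 100 to 200 kb, 97.92 (85.88 to 109.60, n = 188) from 200 to 500 kb, 83.30 (73.13 to 90.90, n = 75) from 500 to 1000 kb and 88.79 (69.82 to 104.14, n = 20) beyond. The 5 farthest peaks lay 1651 to 2552 kb from a coding TSS. The farthest, at chr4:33495660-33496076 and nearest to ARAP2, scored 143.65. Those nearest to PCDH7 (1733 kb), CTNNA2 (1694 kb), PCDH10 (1679 kb) and TMEFF2 (1651 kb) scored 72.01, 94.97, 65.29 and 69.82, so that 4 of the 5 fell below 100. PCDH7 and PCDH10 are protocadherin genes and CTNNA2 encodes a neuronal catenin.

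The base on each side of the motif was then read at the central full ARE. A stood before it in 499 gene-desert peaks (67.1%, interval 63.6 to 70.4%), G in 200, C in 39 and T in 6. The share with A before was higher than the 58.6% in the intergenic peaks nearer to genes (odds ratio 1.44, Fisher's exact test, two-sided, adjusted p = 0.011) and not shown to differ from the 63.9% inside genes (1.15, 0.243). The difference from the nearer peaks no longer passed with a score of at least 100 (odds ratio 1.5, exact test, adjusted p = 0.134) or among peaks outside every annotated gene (1.34, 0.106). A stood after the ARE in 609 peaks (81.9%), against 78.2% and 77.5% in the 2 comparison sets (same exact test, adjusted p = 0.149 and 0.071), and with a distance of 100 kb both differences passed (odds ratios 1.91 and 1.84, adjusted p = 6.0e-05 for each). Position 4 was C in 82.0% of the 738 peaks whose central site reads on 1 strand only, against 81.8% and 79.9% (same exact test, adjusted p = 0.945 and 0.356). The median score was 102.13 (94.97 to 111.42, n = 507) where the central site had C at position 4 and a purine on both sides, a form chosen after the values were seen and called the extended form, and 81.45 (75.59 to 86.42, n = 237) for the other peaks.

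To see how many of the available motifs lay in a peak, every full ARE of hg19 was placed by the same position rule. The genome held 51467 full AREs, of which 3844 (7.47%) lay inside a deposited peak. In gene deserts 865 of 16399 did (5.27%, interval 4.94 to 5.63%). This was lower than the 9.10% of the 8613 intergenic sites at most 50 kb from a coding TSS (odds ratio 0.556, Fisher's exact test, two-sided, adjusted p = 1.4e-29). It was also lower than the 7.51% of the 18643 sites inside coding genes (0.686, 1.7e-17). Neighbouring sites can share a peak, so sites are not fully independent. Without the 79 gene-desert sites in peaks with 5 or more full AREs, and without such sites elsewhere, the odds ratios were 0.535 and 0.641.

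Within gene deserts the share of sites in a peak differed by the bases around the motif. A before the ARE went with 12.5% of sites in a peak against 2.79% for any other base (odds ratio 4.99, Fisher's exact test, two-sided, adjusted p = 2.6e-111). A after it went with 11.1% against 1.57% (odds ratio 7.85, same exact test, adjusted p = 8.7e-156), and C at position 4 with 6.86% against 2.69% for G (odds ratio 2.67, adjusted p = 7.2e-32). The rule uses the full ARE but not these neighbours. By each base before the ARE, the shares were 12.5% for A, 9.0% for G, 0.770% for C and 0.287% for T. By each base after it, they were 11.4% for A, 8.13% for G, 1.60% for T and 0.623% for C, leaving out the sites that read on both strands. These shares include tandem copies such as those near TRIML1 and ZNF469, where the central site has G before it. Sites in peaks with 5 or more full AREs were then left out, after the data were seen. The odds ratios became 6.22 for A before, 7.37 for A after and 2.51 for C at position 4.

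Combining the 3 positions, the share rose from 0.140% of 3567 sites with C at position 4 and a pyrimidine on both sides (interval 0.0599 to 0.328%) to 27.3% of 2180 sites of the extended form (25.5 to 29.2%). A purine on both sides with G at position 4 gave 9.92% of 1210 sites. A purine before alone, with C at position 4, gave 3.18% of 2297, and a purine after alone gave 1.25% of 2157. Sites that read on both strands, with GC on each side of the core, lay in a peak in 11 of 463 cases (2.38%, 1.33 to 4.20%). The extended form made up 595 of the 865 gene-desert sites in a peak, and 1585 sites of this form in gene deserts lay in none.

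**Figure D4:**
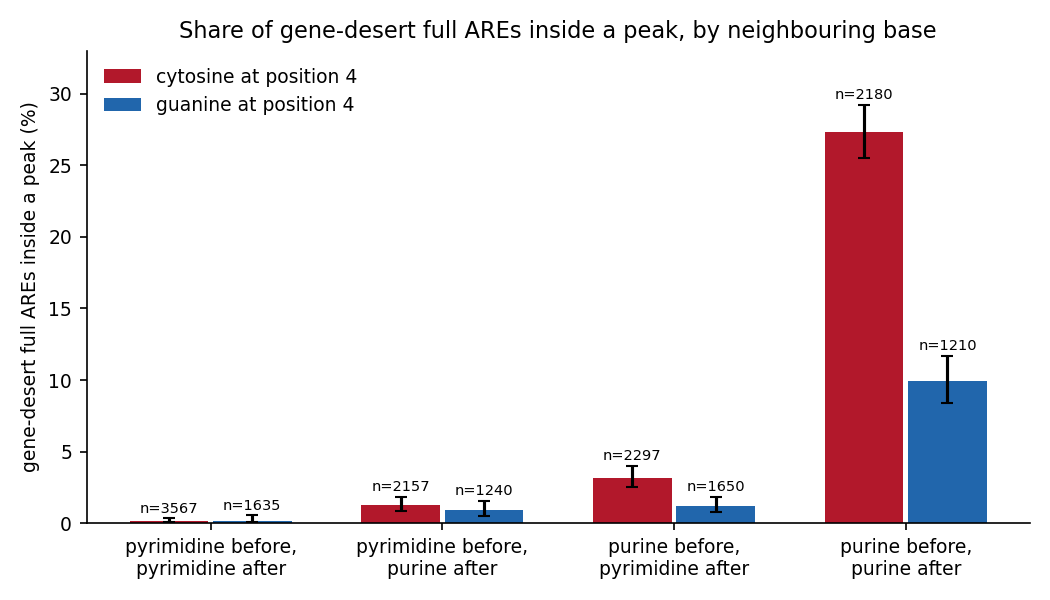
Share of gene-desert full AREs inside a deposited peak, in percent with 95% Wilson intervals (y axis), by whether a purine or a pyrimidine stands before and after the motif (x axis) and by the base at position 4 (colour), with the number of genomic sites over each bar. Sites with a purine on both sides reach 27.3% with cytosine and 9.92% with guanine at position 4, and the other classes stay at or below 3.18%. Without sites in peaks with 5 or more full AREs, not drawn here, the 27.3% becomes 24.8%.

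The lower share in gene deserts held within the extended form, a restriction added after the data were seen. It was 27.3% in gene deserts, 47.6% of 1010 sites in intergenic sequence nearer to genes (odds ratio 0.413, Fisher's exact test, two-sided, adjusted p = 1.5e-28) and 38.8% of 2173 inside genes (0.592, 7.1e-16). By distance to the nearest coding TSS, the share of intergenic sites of this form in a peak was 44.6% from 2 to 10 kb, 57.0% from 10 to 20 kb and 44.3% from 20 to 50 kb. In the gene deserts it was 32.9% from 50 to 100 kb, 30.2% from 100 to 200 kb, 29.5% from 200 to 500 kb, 17.1% from 500 to 1000 kb and 9.45% of 127 sites beyond (interval 5.49 to 15.8%). The chromosome 4 array lies in the bin from 200 to 500 kb, and without peaks holding 5 or more full AREs that bin fell to 22.6% and the bin from 10 to 20 kb to 49.3%.

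**Figure D5:**
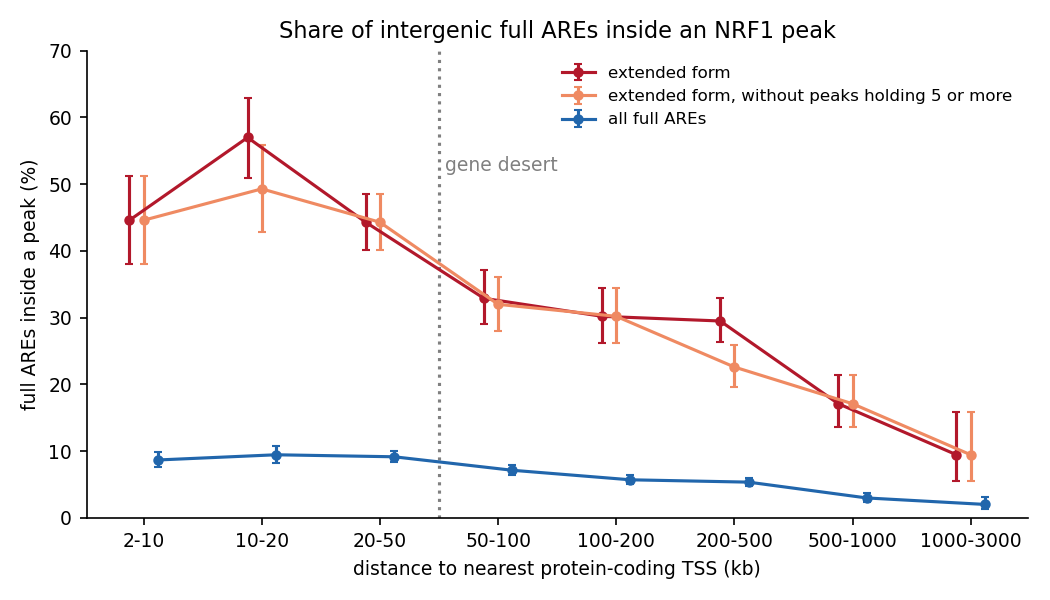
Share of intergenic full AREs inside a deposited peak, in percent with 95% Wilson intervals (y axis), by distance to the nearest protein-coding TSS in kb (x axis), for all full AREs, for the extended form, and for the extended form without peaks holding 5 or more full AREs. The extended form goes from 44.6% at 2 to 10 kb to 9.45% beyond 1000 kb, and all full AREs from 8.67% to 2.01%.

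The peaks were spread over all chromosomes but Y. Chromosome 17 had 1.27 per Mb of gene desert, the highest density, chromosome X had 0.216 and chromosome 19 had 0.200 (1 peak in 5.01 Mb). On chromosome X, 10 of 174 gene-desert sites of the extended form lay in a peak (5.75%, interval 3.15 to 10.3%), against 585 of 1979 on the autosomes (29.6%, 27.6 to 31.6%). On chromosome Y the number was 0 of 27, which allows a share of up to 11.1% when 3 counts are taken as the limit of a count of 0, and 12.5% by the upper end of Wilson's interval. The copy number of each chromosome in these cells was not analysed here. Without X and Y the odds ratios of all full AREs in gene deserts, against the 2 other compartments, were 0.565 and 0.708.

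Some of the peaks lay on sequences that resemble others in the genome. The 93 bases around the central full ARE, the length of a read, had no similar window (at least 75 of the 93 bases identical) among the full AREs of the genome in 615 peaks (82.7%), and 61 peaks (8.20%) had 10 or more. This share was 7.54% in the intergenic peaks nearer to genes (adjusted p = 0.696) and 5.24% inside genes (odds ratio 1.62, Fisher's exact test, two-sided, adjusted p = 0.021), in a comparison added after the data were seen. An identical window at another full ARE, which a read of exactly that window cannot tell apart, was found for 20 peaks. The 3 peaks with the highest scores (3100, 2150.68 and 1002.50) are among them, and their windows occurred 2, 5 and 10 times. Whether the identical copies lay in the same array was not counted. Windows were grouped by chains of such similarity, so that 2 windows of a group need not be similar to each other, and the central window of the FOXF1 peak had 1 similar window. The following stretches, from 2 of the 3 largest groups by number of peaks, are shown because each group had sites in peaks and sites in none.
Group B, in a peak, chr3:31398585-31398653, minus strand: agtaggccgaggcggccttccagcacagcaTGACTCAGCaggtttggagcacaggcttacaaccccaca
Group B, in no peak, chr6:165595689-165595757, plus strand: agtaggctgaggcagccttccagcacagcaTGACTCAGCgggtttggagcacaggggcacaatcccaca
Group C, in a peak, chr16:86341363-86341431, minus strand: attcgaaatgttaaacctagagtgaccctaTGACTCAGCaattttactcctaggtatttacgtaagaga
Group C, in no peak, A before, chr2:22299549-22299617, minus strand: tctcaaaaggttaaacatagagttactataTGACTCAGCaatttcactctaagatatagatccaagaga
Group C, in no peak, T before, chr15:87982409-87982477, plus strand: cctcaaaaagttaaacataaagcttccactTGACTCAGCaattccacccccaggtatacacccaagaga

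Group B had 43 full AREs in gene deserts, of which 17 lay in a peak (39.5%, 26.4 to 54.4%), with scores of 60.34 to 391.89. Group C was more numerous, with 646 in gene deserts, and 13 of them lay in a peak (2.01%, 1.18 to 3.41%), the FOXF1 peak among them. Of its sites, 583 had T before the ARE and none of these lay in a peak, nor did any of the 593 with a pyrimidine there, whereas 13 of the 53 with a purine there did. These counts are given without a test, since the sites of a group share sequence. The other groups did not all show this. In a group of 145 gene-desert sites, named after its values were seen, the 4 sites in a peak were among the 135 with a pyrimidine before the ARE, and 0 of the 10 with a purine there lay in one. Another, named likewise, had 1150 sites in gene deserts and none of the extended form, and 2 of them lay in a peak. These were 1 of the 93 with a purine before the ARE and 1 of the 1057 with a pyrimidine there. Both groups have too few sites in a peak to compare the bases. Over all gene-desert sites of the extended form, the share in a peak was 26.5% of 1574 without a similar window, 26.9% of 219 with 1 to 9, 45.2% of 210 with 10 to 99, which include copies of the chromosome 4 array, and 13.6% of 177 with 100 or more (interval 9.28 to 19.4%).

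The genes nearest to the peaks were varied, with 599 distinct coding genes for the 744 peaks and 490 of them nearest to a single peak. Of the gene lists used, the 33 proteasome genes, the 33 autophagy genes and the 10 genes of CNC and small MAF factors were nearest to 0 of the peaks. Their shares of the gene-desert length were 0.0313%, 0.257% and 0.0452%, so that few peaks could fall there. The 27 antioxidant ARE genes had 1 peak, nearest to SLC7A11, the cystine transporter gene, at 256 kb. Its score of 53.04 was close to 50.00, the lowest of the gene-desert peaks. This 1 peak was 0.134% of the peaks, for a list with 0.0662% of the gene-desert length. The 12 AP-1 genes had 2 peaks (0.269% of the peaks, with 0.0233% of the length), both upstream of JUN and inside LINC01135, at 97.6 kb with a score of 144.46 and at 99.5 kb with a score of 60.06. None of the 3 central sites was of the extended form. Their sequences follow because these genes are on the lists. Genes were assigned by distance alone, and a link between peak and gene was not tested.
First peak upstream of JUN, chr1:59347355-59347393, minus strand: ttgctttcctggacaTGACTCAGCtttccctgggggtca
Second peak upstream of JUN, chr1:59349129-59349167, plus strand: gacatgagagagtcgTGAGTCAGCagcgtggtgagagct
Peak nearest to SLC7A11, chr4:138888781-138888819, minus strand: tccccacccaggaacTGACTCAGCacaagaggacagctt

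Most of the peaks had no other of them within 50 kb. The share for peaks spread evenly at 0.751 per Mb was not computed, so these counts do not show whether the peaks cluster. Of the 744, 98 (13.2%) lay within 50 kb of another, in 46 clusters of 2 or more, and 1 cluster reached 4. That cluster spanned chr3:31355575-31411631, 163 to 218 kb upstream of STT3B, which encodes a subunit of the oligosaccharyltransferase complex, and its 4 scores were 398.42, 391.89, 173.17 and 85.97. The Group B window printed as lying in a peak is from it. Of 7 genes nearest to 4 or more peaks, 4 are named here, a choice made after seeing their values. TRIML1 had 6 peaks, MYC and TMEM132C had 5 each and PCDH7 had 5, in gene-desert stretches of 0.791, 0.934, 1.11 and 4.01 Mb. Of the TRIML1 peaks, 3 lay within a span of 4.82 kb that holds the chromosome 4 array. The 5 peaks nearest to MYC, a transcription factor gene that drives growth, lay 327 to 818 kb downstream and scored 60.65 to 368.09.

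Other motifs were counted in each peak and in a stretch of the same length that starts 2 kb beyond its right edge (743 pairs). CATTCC, on either strand, the core bound by TEAD factors, was in 32.2% of the peaks and 23.8% of the flanks (exact McNemar test, two-sided, adjusted p = 0.0045 over 10 motifs). CCGGAA, an ETS-type motif, was in 5.52% against 2.56% (same exact test, adjusted p = 0.015), and an AP-1 core TGA(C/G)TCA outside any full ARE in 12.8% against 7.94% (0.015). The GC content was 42.7% in the peaks and 39.9% in the flanks (medians), and its part in these differences was not tested. CCGGAA no longer passed with the left flank (exact test, adjusted p = 0.154), and neither it nor CATTCC nor the AP-1 core passed among peaks with a score of at least 100 (0.063 for each). AGATAA, the GATA motif, was in 28.3% against 33.1% and did not pass (0.112). The forkhead motif TGTTTAC (8.88% against 7.81%), the C/EBP-type motif TTGCNNAA (25.8% against 24.9%), the RUNX motif TGTGGTT (12.2% against 10.1%), the TCF motif CTTTGAT (9.29% against 8.34%), GGGCGG (8.08% against 5.52%) and the E-box CACGTG (6.59% against 5.11%) did not pass either, with adjusted p from 0.112 to 0.720. A match is a stretch of letters and not a measured site.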

How the data were processed

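Per the labels and the submitters' processing notes, reads of 1 NRF1 ChIP library were extracted with bcl2fastq in CASAVA 1.8.2, mapped to hg19 with Bowtie2 2.2.6, and peaks were called with MACS 1.4.2. The deposited values are the start and end of each peak and a MACS score, and the authors' settings and control library are not given in the sources used here. Of 5683 peaks, 5 on unplaced contigs and 5 with undetermined bases were left out. Sequence came from GRCh37 and genes from GENCODE v44lift37.

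AREs were searched on both strands. A core followed by GC on both strands counted once. Positions were those of the peak centre or of the site. Shares were compared by Fisher's exact test and peaks with flanks by an exact McNemar test, two-sided, with Benjamini-Hochberg adjustment over each family at 0.05. The peaks were chosen, and gene lists and tests fixed, with earlier results of these data known. The peaks and genes named were the 10 highest and 3 lowest scores, the 5 farthest, the 5 with most full AREs, those at the 50 kb limit, clusters of 4 or more, the 3 largest groups of similar windows and genes of the lists. One of these groups and 1 sequence are not reported here. Others are named as chosen after their values were seen. Windows of 93 bases aligned on the full ARE were compared without gaps, in place of the blastn search first planned. The search, positions and tests were tested on simulated data. Tests used scipy 1.17.1 under Python 3.11.15, with pandas 2.3.3, numpy 2.4.6 and, for plots, matplotlib 3.10.9. Alternatives were a score of at least 100, a distance of 100 kb, the central 200 bp, merged peaks, peaks outside every gene, other TSSs, other overlaps, the left flank, unique windows, and restrictions added later.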

Additional observations from a re-analysis of the deposited data

How the results depend on the processing

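Of 213 alternative values computed, 179 kept the direction, the side of the threshold or the size of the reported value. A score of at least 100 left 344 peaks, with a median score of 168.72 and a median width of 583 bp, and A before the full ARE, against the nearer intergenic peaks, had an odds ratio of 1.5 (two-sided exact test, adjusted p = 0.134). In the motif counts at that score, the ratio of pairs with the motif only in the peak to pairs with it only in the flank was 1.51 for CATTCC, 3.33 for CCGGAA and 1.72 for the AP-1 core, none of them past the threshold, and TTGCNNAA (0.865) and AGATAA (1.09) turned. A distance of 100 kb gave a median score of 90.07 and a median width of 482 bp. It raised past the threshold a score of at least 100 against nearer peaks (0.620), A after (1.91 and 1.84) and a central site (1.44 and 1.4), turned 2 or more full AREs to 0.968, and lost CCGGAA (2.44) and the AP-1 core (1.70). With the full ARE in the central 200 bp, a score of at least 100 against nearer peaks passed (0.758). There CCGGAA (1.80) was lost, AGATAA (0.660) passed and TGTGGTT (0.737) turned. Merging peaks within 500 bp turned 2 or more full AREs (0.936) and C at position 4 (0.993) against nearer peaks. Only peaks outside every gene numbered 460, and there A before (1.34) and a score of at least 100 against genes (0.778) were lost and C at position 4 (0.995) turned. With the left flank TTGCNNAA turned (0.966), AGATAA passed (0.738) and CCGGAA was lost (1.62). The comparisons named above that turned had not passed the test as reported. A further comparison that had passed also turned. Gene-desert sites with a unique window lay in a peak less often than those with a repeated one, at 4.98% against 13.3% (odds ratio 0.343, Fisher's exact test, two-sided, adjusted p = 4.3e-14). With a site required within 100 bp of a peak centre the odds ratio was 1.08 (0.840), and without sites in peaks with 5 or more full AREs, an alternative added after the data were seen, it was 1.54 (0.097). The reference used is not soft-masked, so the planned share of masked sites and the planned restriction to unmasked sites were not run, and similarity of windows took their place after the data were seen. The odds ratios of gene deserts against both other compartments stayed below 1 and past the threshold in every alternative run for them. The causes were not tested.

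With 1 library there is no replicate error, the depth is unknown and a site outside a peak is not shown to be unbound. Pairing between libraries was not possible because the peak list comes from 1 ChIP library. The only pairs tested were peaks and their own flanks.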
